A study of Mus musculus with 3 samples.

Results

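The pigmentation genes and Kit ligand are 9 of the 32285 genes in the count matrices, matched by symbol. *Dct*, *Pmel*, *Tyr*, *Tyrp1* and *Mlana* act in pigment production, *Mitf* and *Sox10* are transcription factors of the melanocyte lineage, *Kit* is a receptor tyrosine kinase, and *Kitl* encodes its ligand, stem cell factor. They were followed in dorsal skin of female C3H/HeN mice, 25 weeks old, by droplet-based single-cell RNA sequencing (10x 3′). The 3 groups were Neg (vehicle-treated control mice without hair loss), AA (a model of alopecia areata, which the study induced by transferring skin-draining lymph node cells of AA mice that had been expanded in culture) and AA+Ab (the AA model given an antibody that neutralizes the chemokine CXCL12). Each group is 1 library made from the pooled skin of 7 to 8 mice, so no difference between groups has a replicate check and no p-value is given.

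A cell was kept if it had at least 200 genes and at most 10% mitochondrial UMIs, where a UMI (unique molecular identifier) stands for 1 captured transcript. This left 6582 Neg, 10433 AA and 9832 AA+Ab cells with median depths of 13694.5, 11177 and 11371 UMIs, and between 17 and 28 barcodes were shared by any pair of libraries. Cells called melanocytes by the gene rule held a UMI of 3 or more of *Dct*, *Pmel*, *Tyrp1*, *Mlana* and *Tyr*. They numbered 1097 in Neg, 263 in AA and 1199 in AA+Ab. Clustering of the other cells gave 4811, 8909 and 7574 keratinocytes and 81, 240 and 113 dermal cells, the last being fibroblasts and dermal papilla cells. Class names rest on marker genes of clusters and stand for cells like those named. Levels are UMIs per 1000000 UMIs of the same cells (CPM). Brackets hold 95% exact intervals, Poisson for a level, Clopper-Pearson for a share and conditional for a ratio, and they cover counting error only. The ratios AA over Neg and AA+Ab over AA share the AA library, so they are not independent of each other.

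Melanin is made in melanosomes of melanocytes, which in hair-bearing mouse skin sit mainly in the follicle. Tyrosinase (*Tyr*) starts melanin synthesis, *Tyrp1* and *Dct* encode enzymes of the eumelanin branch, *Pmel* encodes the amyloid scaffold on which melanin is laid down, and *Mlana* encodes a melanosome protein. Transcription of these genes depends on MITF, which acts with SOX10, while Kit ligand from epithelial and dermal cells acts on KIT at the melanocyte surface to support migration and survival.

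MITF is known to bind the M-box, an extended E-box. Its core TCATGTG, which includes the E-box CATGTG, was searched on both strands of RefSeq promoter windows (build GRCm38.p6), available for 6 of the 9 genes and not for *Pmel*, *Mlana* or *Sox10*. It occurred in 3.25% of all 32851 windows, and CATGTG in 12.3%. Windows of *Dct*, *Tyr* and *Tyrp1* held the core, and those of *Mitf*, *Kit* and *Kitl* did not. The 250 bases before the transcription start are shown for the first 3 genes because their levels in melanocyte-like cells are given beside *Mitf*. Each is written 5′ to 3′ on the strand of the gene with the core in capitals in either orientation, and a match of letters describes the window, not binding.
Dct promoter, chr14:118052247-118052496, minus strand, core at 151 and 232 bases before the start: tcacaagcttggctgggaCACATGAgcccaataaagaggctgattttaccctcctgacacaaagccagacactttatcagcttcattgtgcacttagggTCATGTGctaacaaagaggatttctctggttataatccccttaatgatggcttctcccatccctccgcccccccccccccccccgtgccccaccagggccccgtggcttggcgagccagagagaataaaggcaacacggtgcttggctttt
Tyr promoter, chr7:87493513-87493762, minus strand, core at 22 bases before the start: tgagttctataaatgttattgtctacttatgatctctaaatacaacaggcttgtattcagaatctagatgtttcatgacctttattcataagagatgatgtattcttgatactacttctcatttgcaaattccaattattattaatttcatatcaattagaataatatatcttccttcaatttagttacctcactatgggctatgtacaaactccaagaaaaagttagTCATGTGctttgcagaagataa
Tyrp1 promoter, chr4:80833963-80834212, plus strand, core at 47 bases before the start: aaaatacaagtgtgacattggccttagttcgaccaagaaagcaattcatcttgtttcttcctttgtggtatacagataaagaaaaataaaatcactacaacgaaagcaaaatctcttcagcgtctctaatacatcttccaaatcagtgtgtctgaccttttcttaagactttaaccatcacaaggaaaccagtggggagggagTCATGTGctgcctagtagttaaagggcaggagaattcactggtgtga

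On mm10 (GENCODE M21), *Dct* spans chr14:118012790-118052244, *Pmel* chr10:128704195-128720238, *Tyr* chr7:87424771-87493512, *Tyrp1* chr4:80834123-80851719 and *Mlana* chr19:29697824-29708634. *Mitf* spans chr6:97807052-98021349, *Sox10* chr15:79154908-79165240, *Kit* chr5:75574916-75656722 and *Kitl* chr10:100015630-100100416. All 9 are protein-coding. The RefSeq start behind the *Tyrp1* window lies downstream of the GENCODE start, so the end of that window, with its core, falls inside the span given here.

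The name melanocyte went against the data for most cells that met the gene rule. These cells made up 16.7% of Neg, 2.52% of AA and 12.2% of AA+Ab cells, but their median level of the 5 pigment genes together was only 3.50, 3.97 and 4.29 UMIs per 10000. In a clustering of all cells, 858 of 1097, 192 of 263 and 980 of 1199 of them fell in keratinocyte clusters. A single cluster led by pigment genes held 44, 52 and 68 of them, called melanocyte-like here, with medians of 218, 147 and 269 UMIs per 10000. These few cells carried 71.8%, 77.0% and 73.6% of all pigment gene UMIs of their libraries. The lowest of them held only 0.775, 9.67 and 3.81 pigment gene UMIs per 10000, and 31, 31 and 55 of them held at least 1%. The cluster was mixed, and also held 4, 9 and 12 cells outside the rule with endothelial genes. A further 114, 4 and 49 rule cells lay in a cluster of very low depth, with median UMI counts of 621, 1170.5 and 1090. The remaining 939, 207 and 1082 rule cells had a median of 5, 4 and 5 pigment gene UMIs each.

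Markers that the rule did not use also differed between these sets of cells, as a description, since the clustering used them. Summed over 9 other melanocyte genes, among them *Oca2*, *Slc24a5*, *Trpm1* and *Pax3*, the level was 6965 CPM in Neg, 10003 CPM in AA and 9844 CPM in AA+Ab melanocyte-like cells, against 47.8, 75.5 and 57.2 CPM in the remaining rule cells. A list of 19 keratinocyte markers summed to 5797, 7504 and 4481 CPM in melanocyte-like cells and to 21823, 18341 and 23954 CPM in the remaining rule cells. Keratinocyte transcripts were thus also present in the melanocyte-like cells, most in AA, and their part in the results was not tested.

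**Figure D1:**
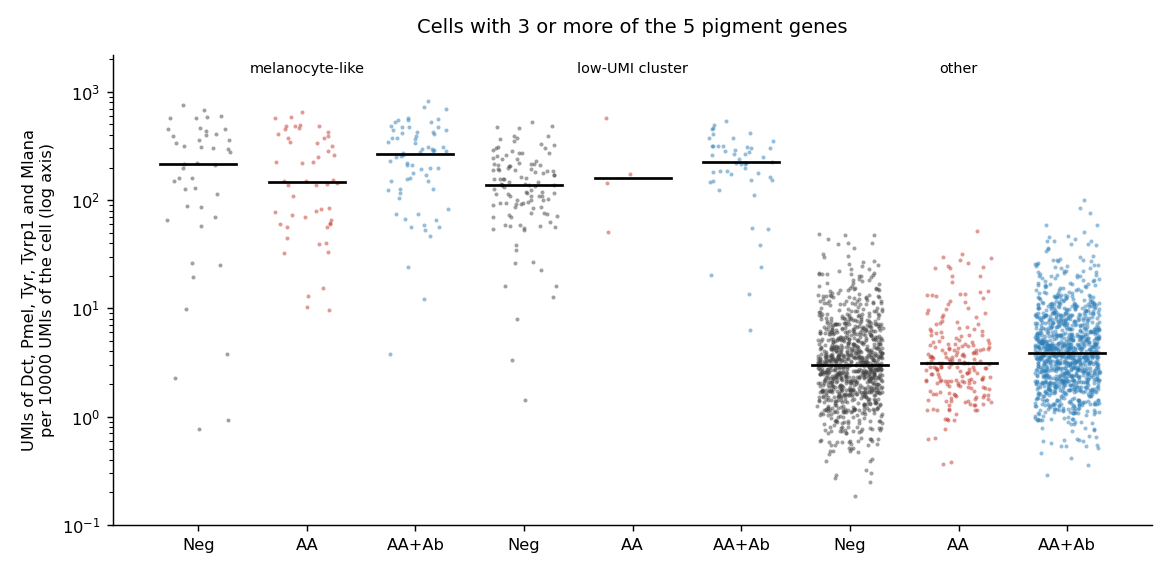
UMIs of Dct, Pmel, Tyr, Tyrp1 and Mlana together per 10000 UMIs (log axis) in each cell that met the gene rule, by library and by where the cell fell in a clustering of all cells, with black bars at the medians. The melanocyte-like cells have medians of 218 (Neg), 147 (AA) and 269 (AA+Ab), and the remaining cells, which are far more numerous, 2.99, 3.11 and 3.84.

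Pigment gene UMIs were present at a low level in every cell type. The classes here are those of the clustering of all cells, from which rule cells were not taken out. In T cells, which do not make melanin, the 5 genes together stood at 1.95 UMIs per 10000 in Neg, 1.01 in AA and 2.57 in AA+Ab. Dendritic cells and macrophages held 1.99, 0.749 and 2.52, and keratinocytes 1.09, 0.551 and 1.12, so in each of these classes AA was lowest. Rule cells were 15.1%, 2.10% and 11.4% of these keratinocytes. In the keratinocytes clustered without rule cells the 5 genes stood at 66.0, 47.2 and 77.3 CPM, a smaller gap between Neg and AA. *Dct* made up 39.5%, 38.2% and 37.1% of the pigment gene UMIs in T cells and 41.2%, 42.1% and 36.4% in melanocyte-like cells. *Tyr* made up 3.16%, 4.09% and 3.47% in T cells and 6.46%, 6.63% and 7.04% in melanocyte-like cells. Whether a pigment gene UMI at such low levels is background was not tested. The rule cells of the low-depth cluster had medians of 138, 159 and 227 pigment gene UMIs per 10000, in AA from 4 cells. They were chosen by the same genes, and their median counts of these genes were only 9, 37.5 and 26 UMIs. At such depth the rule alone sets a high level, so they are not compared with the other classes. The makeup of the pigment gene UMIs differed in some keratinocyte clusters of the clustering of all cells, where *Dct* took a larger share. It made up 55.9%, 60.5% and 64.0% in the cluster led by *Csta1*, *Fabp4* and *Tchh*, 47.9% (45.9 to 49.9), 63.1% (60.2 to 65.9) and 55.5% (53.5 to 57.5) in that led by *Wif1* and *Shh*, and 49.3%, 61.8% and 50.7% in that led by *Krt35*. In the cluster led by *Trabd2b* it was 39.9%, 50.9% and 49.3%, and in the suprabasal-like cluster led by *Krt1* it was 39.0%, 38.5% and 35.1%.

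Over all cells, the 5 pigment genes together were lower in AA skin than in Neg skin and higher again in AA+Ab skin. Their summed level was 465 CPM in Neg, 256 CPM in AA and 492 CPM in AA+Ab, an AA over Neg ratio of 0.551 (0.544 to 0.559) and an AA+Ab over AA ratio of 1.92 (1.90 to 1.95). *Pmel* stood at 106, 53.8 and 113 CPM and had the lowest of the AA over Neg ratios, 0.508 (0.494 to 0.523). *Mlana*, at 88.5, 48.1 and 107 CPM, had the highest AA+Ab over AA ratio, 2.23 (2.17 to 2.30). *Dct* (193, 109 and 186 CPM), *Tyrp1* (51.9, 29.7 and 56.2 CPM) and *Tyr* (25.3, 15.2 and 29.7 CPM) had AA over Neg ratios between 0.566 and 0.600. *Sox10* took the same course at a far lower count, with 1.99, 1.16 and 1.92 CPM from 237, 157 and 268 UMIs.

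*Mitf*, *Kit* and *Kitl* did not follow the pigment genes over all cells. *Mitf* was highest in AA, at 40.6 CPM in Neg, 56.3 CPM in AA and 44.8 CPM in AA+Ab (ratios of 1.39 and 0.795). *Kitl* was lowest in Neg, at 94.8, 119 and 147 CPM (ratios of 1.26 and 1.23). *Kit* was at 18.6, 15.1 and 19.97 CPM, with ratios of 0.809 and 1.32. Counted at a ratio of 1.5, 6 of the 9 genes were lower and 0 higher in AA than in Neg, where 7.59% of the 19482 genes tested were higher and 9.83% lower. In AA+Ab against AA, 6 of the 9 were higher and 0 lower, where 6.87% of 19463 genes were higher and 10.4% lower.

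The amount of pigment gene RNA in a library depends on how many melanocytes it holds and on how much each holds. Melanocyte-like cells were 0.668% of Neg cells, 0.498% of AA cells and 0.692% of AA+Ab cells, ratios of 0.746 (0.489 to 1.14) and 1.39 (0.953 to 2.03), both with intervals that include no difference. They carried 1.27%, 0.606% and 1.10% of the UMIs of their libraries, since their median depth was 34220 UMIs in Neg, 13644.5 in AA and 20479.5 in AA+Ab. Pooled over these cells, the 5 genes summed to 26348 CPM in Neg, 32521 CPM in AA and 32860 CPM in AA+Ab (ratios of 1.23 and 1.01), a sum to which deep cells contribute most, while the median per cell was lowest in AA. These cells were chosen by the same 5 genes, and these levels are therefore a description.

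*Dct* stood at 10865, 13681 and 11962 CPM in the melanocyte-like cells and *Pmel* at 6010, 6931 and 7747 CPM. *Tyr*, at 1701, 2156 and 2314 CPM, and *Tyrp1*, at 3004, 3984 and 3823 CPM, were both lowest in Neg, as was *Mlana* at 4768, 5770 and 7014 CPM. A mean that gives each cell the same weight turned the AA over Neg direction of the summed pigment genes, to a ratio of 0.835. For AA+Ab over AA it gave 1.30, on the same side of 1 as the pooled ratio. The medians per cell also differed from the pooled levels: *Mlana* stood at 37.1 UMIs per 10000 in Neg, 5.99 in AA and 41.3 in AA+Ab, and *Pmel* at 52.1, 15.4 and 55.9, while *Dct* was at 105, 92.6 and 88.8.

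**Figure D2:**
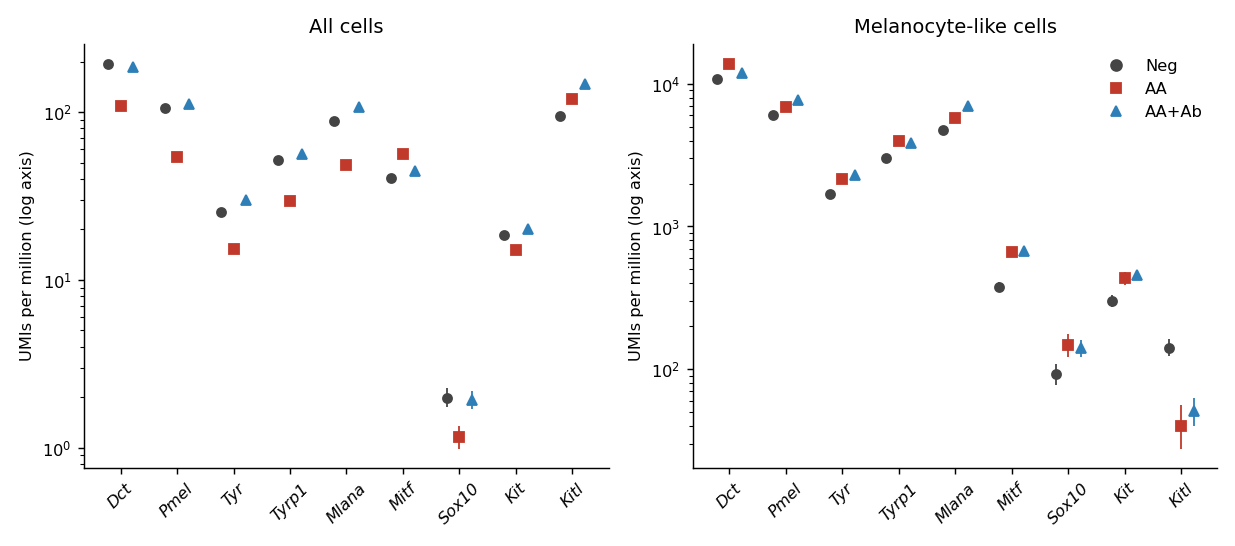
Level of the 9 genes in CPM (log axes) over all cells and over melanocyte-like cells of the Neg, AA and AA+Ab libraries, with vertical lines for the 95% Poisson interval, which covers counting error only. Over all cells the 5 pigment genes and Sox10 are lowest in AA, while within melanocyte-like cells Mitf goes from 375 in Neg to 663 in AA and Kitl from 141 to 40.2.

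The regulators *Mitf*, *Sox10* and *Kit* took no part in the gene rule but were not kept out of the clustering of all cells. In melanocyte-like cells all 3 were higher in both AA libraries than in Neg. *Mitf* was at 375 CPM in Neg, 663 CPM in AA and 677 CPM in AA+Ab, from 566, 545 and 1042 UMIs, an AA over Neg ratio of 1.77 (1.57 to 1.99). *Sox10* was at 92.1, 147 and 140 CPM, from 139, 121 and 216 UMIs, a ratio of 1.60 (1.24 to 2.05). *Kit* was at 302, 433 and 456 CPM, from 455, 356 and 702 UMIs, a ratio of 1.44 (1.25 to 1.65). For all 3 genes Neg stood apart from both AA libraries, and the AA+Ab over AA ratios of 1.02 (0.919 to 1.13), 0.953 (0.759 to 1.20) and 1.05 (0.925 to 1.20) included no difference. With equal weight for each cell the 3 genes together had ratios of 2.07 and 0.825.

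*Kitl* went the other way in these cells, at 141 CPM in Neg, 40.2 CPM in AA and 50.7 CPM in AA+Ab, an AA over Neg ratio of 0.284 (0.191 to 0.412). It rested on 213, 33 and 78 UMIs, and in Neg 78.9% of them came from 5 cells. Counted at 1.5, 2 of the 9 genes were higher and 1 lower in AA than in Neg melanocyte-like cells, where 13.4% of 9400 genes were higher and 16.5% lower. Between AA+Ab and AA, 0 of the 9 passed in either direction, where 12.4% of 9122 genes were higher and 16.1% lower. Over the cells of the gene rule, in place of the melanocyte-like ones, all 9 genes were higher in AA than in Neg and all 9 lower in AA+Ab than in AA, where 15.4% of genes were higher and 11.7% lower in the first comparison and 8.73% higher and 22.1% lower in the second. The rule itself used 5 of the 9 genes, and nothing is read from this count. *Kitl* was lower in AA+Ab than in AA at a ratio of 0.642, and at 0.882 with mitochondrial UMIs at most 5%. For *Mitf*, *Sox10* and *Kit* together those ratios were 3.46 (89.3, 309 and 137 CPM) and 0.442. The rule cells of Neg and AA+Ab hold many more cells with a few pigment gene UMIs than those of AA, as given above.

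The melanocyte-like cells were not uniform, and the mix of cells differed between libraries. They were divided by *Mlana* at 20 UMIs per 10000, a value set after the data had been seen, and by whether *Mlana* exceeded *Dct* in UMIs. *Mlana* was below that level in 18 of 44 Neg cells (40.9%), 31 of 52 AA cells (59.6%) and 26 of 68 AA+Ab cells (38.2%). Another 22, 21 and 31 cells were above it with *Dct* at or over *Mlana*, and in 4 Neg, 0 AA and 11 AA+Ab cells *Mlana* exceeded *Dct*. The 0 of 52 cells in AA has a Clopper-Pearson upper limit of 6.85%, and a floor of 3 cells in 52 would be 5.77%. Between 10 and 40 *Mlana* UMIs per 10000 lay 5 Neg, 5 AA and 9 AA+Ab cells, and these 3 sets of cells are ranges of a measure and not cell types.

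**Figure D3:**
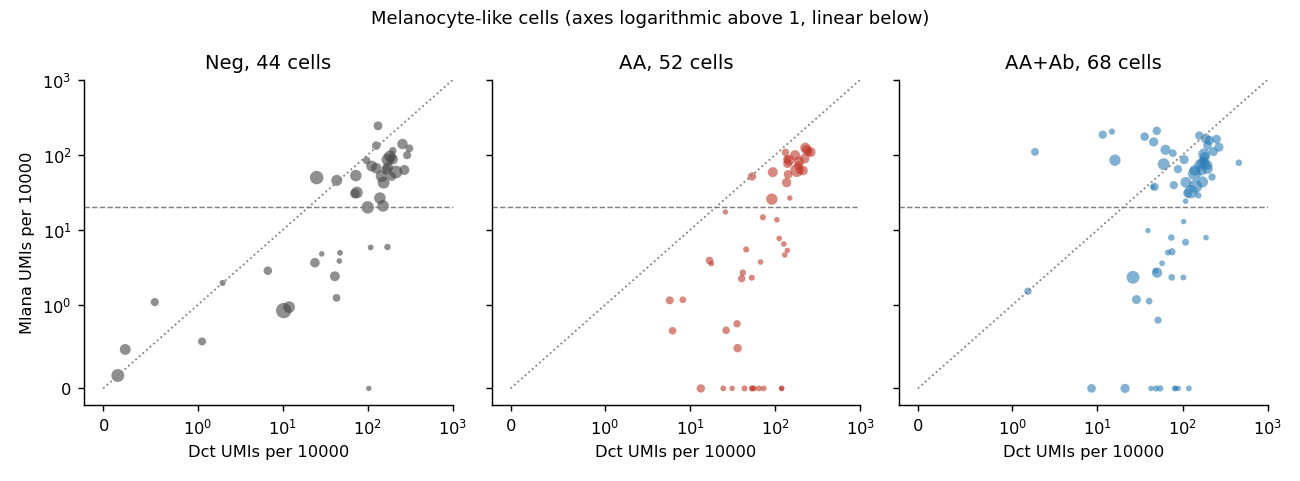
Dct against Mlana in UMIs per 10000 in each melanocyte-like cell, 1 panel for each library, with both axes linear near 0 and logarithmic above, point size by the UMIs of the cell, a dashed line at 20 Mlana UMIs and a dotted line where both genes are equal. The set of cells where Mlana exceeds Dct has 4 cells in Neg, 0 in AA and 11 in AA+Ab, and AA has the highest share of cells below the dashed line, 59.6%.

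Cells in which *Mlana* exceeded *Dct* had lower *Tyrp1* and *Dct* than the other cells with high *Mlana*, and a high level of *Slc7a11*. *Slc7a11* encodes the cystine transporter that supplies pheomelanin synthesis, and agouti hair such as that of C3H mice alternates between eumelanin and pheomelanin during growth. *Slc7a11* stood at 260 CPM in the 4 Neg cells and 669 CPM in the 11 AA+Ab cells, against 43.6, 19.6 and 14.5 CPM in the Neg, AA and AA+Ab cells with high *Mlana* and *Dct* at or over it. *Tyrp1* was at 867 and 1004 CPM against 4679, 5153 and 5523 CPM, and *Dct*, which the division used, at 5978 and 4930 against 16268, 17133 and 16352 CPM. *Mc1r*, the receptor for melanocortin and agouti signals, was at 390 and 637 against 240, 355 and 271 CPM. The 4 Neg cells also held 123 of the 213 *Kitl* UMIs of Neg melanocyte-like cells. These were spread unevenly, with a median of 2.12 and a highest cell of 21.7 UMIs per 10000. The 11 AA+Ab cells held only 2 *Kitl* UMIs, so high *Kitl* was not shared by this range of cells.

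The cells with low *Mlana* were shallow in both AA libraries, with median depths of 18031.5 UMIs in Neg, 3885 in AA and 6258 in AA+Ab. Their lowest *Dct* level was 0.155 UMIs per 10000 in Neg, in a cell of 64519 UMIs, 5.77 in AA and 1.52 in AA+Ab. The Neg range thus included deep cells with hardly any pigment gene UMIs, and their part in the levels that follow was not tested. In the cells with low *Mlana*, *Mitf* stood at 177 CPM in Neg, 849 CPM in AA and 584 CPM in AA+Ab, and *Sox10* at 27.3, 128 and 150 CPM. *Pax3*, a transcription factor of melanoblasts and melanocyte stem cells, was at 177, 1030 and 1001 CPM, and the survival gene *Bcl2* at 114, 531 and 465 CPM. *Krt14* was at 2842, 3374 and 3717 CPM there, above the other melanocyte-like cells in each library. Among the cells with high *Mlana* and *Dct* at or over it, *Mitf* was at 517, 599 and 791 CPM, *Sox10* at 131, 154 and 120 CPM and *Kit* at 402, 474 and 439 CPM. For all 3 genes the gap between Neg and AA was smaller among these deeper cells than among all melanocyte-like cells, and the part of the mix of cells in the pooled ratios was not tested.

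Other genes of the pigment pathway were read in the same melanocyte-like cells. Of 15 melanosome genes, 4 were higher in AA than in Neg by 1.5 times or more and 1 was lower, with a median log2 ratio of 0.45 beside -0.01 over all genes, of which 13.4% were higher and 16.5% lower. The 4 were *Mlph* (141, 252 and 201 CPM in Neg, AA and AA+Ab) and *Myo5a* (730, 1191 and 841 CPM), which carry melanosomes along actin, *Oca2* (1222, 2062 and 2285 CPM), which sets melanosome pH, and the endolysosomal channel gene *Mcoln3* (82.9, 135 and 129 CPM). The lower one was *Slc7a11*, at 54.3, 17.0 and 133 CPM, and it was the only one of the 15 past 1.5 between AA+Ab and AA, with a ratio of 7.82 (4.55 to 14.6). Of its UMIs in AA+Ab, 190 lay in the 11 cells where *Mlana* exceeded *Dct*, and 14 and 1 in the other ranges. Of 11 lineage factors and receptors, beside the same 13.4% and 16.5%, 3 were higher in AA and 0 lower, namely *Pax3* (341, 780 and 592 CPM), *Bcl2* (115, 241 and 164 CPM) and *Zeb2* (357, 644 and 462 CPM). The endothelin receptor gene *Ednrb* was at 690, 878 and 764 CPM and *Mc1r* at 188, 268 and 293 CPM.

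MHC and interferon response genes and cell cycle genes set AA melanocyte-like cells apart in opposite directions. Of 15 MHC and interferon genes, 11 had enough UMIs, 8 of these were higher in AA than in Neg and 1 lower, with a median log2 ratio of 0.99, beside 13.4% higher and 16.5% lower over all genes. *B2m*, the light chain of MHC class I, was at 781, 1770 and 977 CPM and the heavy chain gene *H2-D1* at 386, 884 and 407 CPM. In AA+Ab against AA, 9 of 13 were lower and 3 higher, beside 16.1% lower and 12.4% higher over all genes, the 3 being *H2-Ab1*, *H2-Aa* and *Cd74* of MHC class II presentation (*Cd74* at 8.62, 9.73 and 96.8 CPM). All 6 cell cycle genes were lower in AA than in Neg, with a median log2 ratio of -1.10, among them *Mki67* at 137, 76.6 and 83.8 CPM and *Cdk1* at 94.8, 34.1 and 96.1 CPM, and 3 of the 6 were higher and 0 lower in AA+Ab than in AA. In keratinocytes, 10 of the same 15 MHC and interferon genes were higher in AA than in Neg and 0 lower, beside 5.8% higher and 9.54% lower over all genes.

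*Kitl* in skin came mostly from keratinocytes, and within them mostly from a small cluster. Keratinocytes held 69.9% of the *Kitl* UMIs in Neg, 91.5% in AA and 83.7% in AA+Ab, and dermal cells 1.96%, 1.25% and 0.890%, with another 27.1%, 5.73% and 14.1% in cells of the gene rule, most of which clustered as keratinocytes. In keratinocytes it was at 90.7 CPM in Neg, 120 CPM in AA and 154 CPM in AA+Ab, ratios of 1.32 (1.28 to 1.36) and 1.29 (1.26 to 1.32). The cluster led by *Fabp4*, *Csta1* and *Tchh*, the last encoding trichohyalin of the inner root sheath and medulla, held 146, 223 and 318 cells, or 3.03%, 2.503% and 4.199% of the keratinocytes. It carried 56.9%, 54.0% and 68.6% of their *Kitl* UMIs. Its level was 1351 CPM in Neg, 1670 CPM in AA and 1795 CPM in AA+Ab, and 96.6%, 96.4% and 92.5% of its cells had a *Kitl* UMI. In the clustering of all cells, which kept rule cells, the cluster led by the same genes had *Kitl* at 2051, 2356 and 2322 CPM. There AA+Ab was not above AA. Within the cluster described first, from which rule cells had been taken out, the ratios were 1.24 (1.19 to 1.28) and 1.07 (1.04 to 1.11).

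Outside that cluster the 2 comparisons took different directions. Without it, *Kitl* in keratinocytes had an AA over Neg ratio of 1.41 and an AA+Ab over AA ratio of 0.900, so the higher *Kitl* of AA+Ab keratinocytes rested on that cluster and its larger share of cells. With clusters weighted to the Neg mix, the ratios were 1.25 and 1.08. In the cluster led by *Trabd2b* and *Krt6a*, it was at 79.5, 141 and 64.5 CPM, highest in AA, and in the cluster led by the interferon-inducible genes *Iigp1* and *Gbp2b* it was at 80.3 CPM in 247 AA cells and 36.9 CPM in 38 AA+Ab cells, with 1 UMI in the 10 Neg cells. The large cluster led by *Fst* and *Sostdc1* had little *Kitl*, at 16.4, 10.9 and 10.8 CPM.

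**Figure D4:**
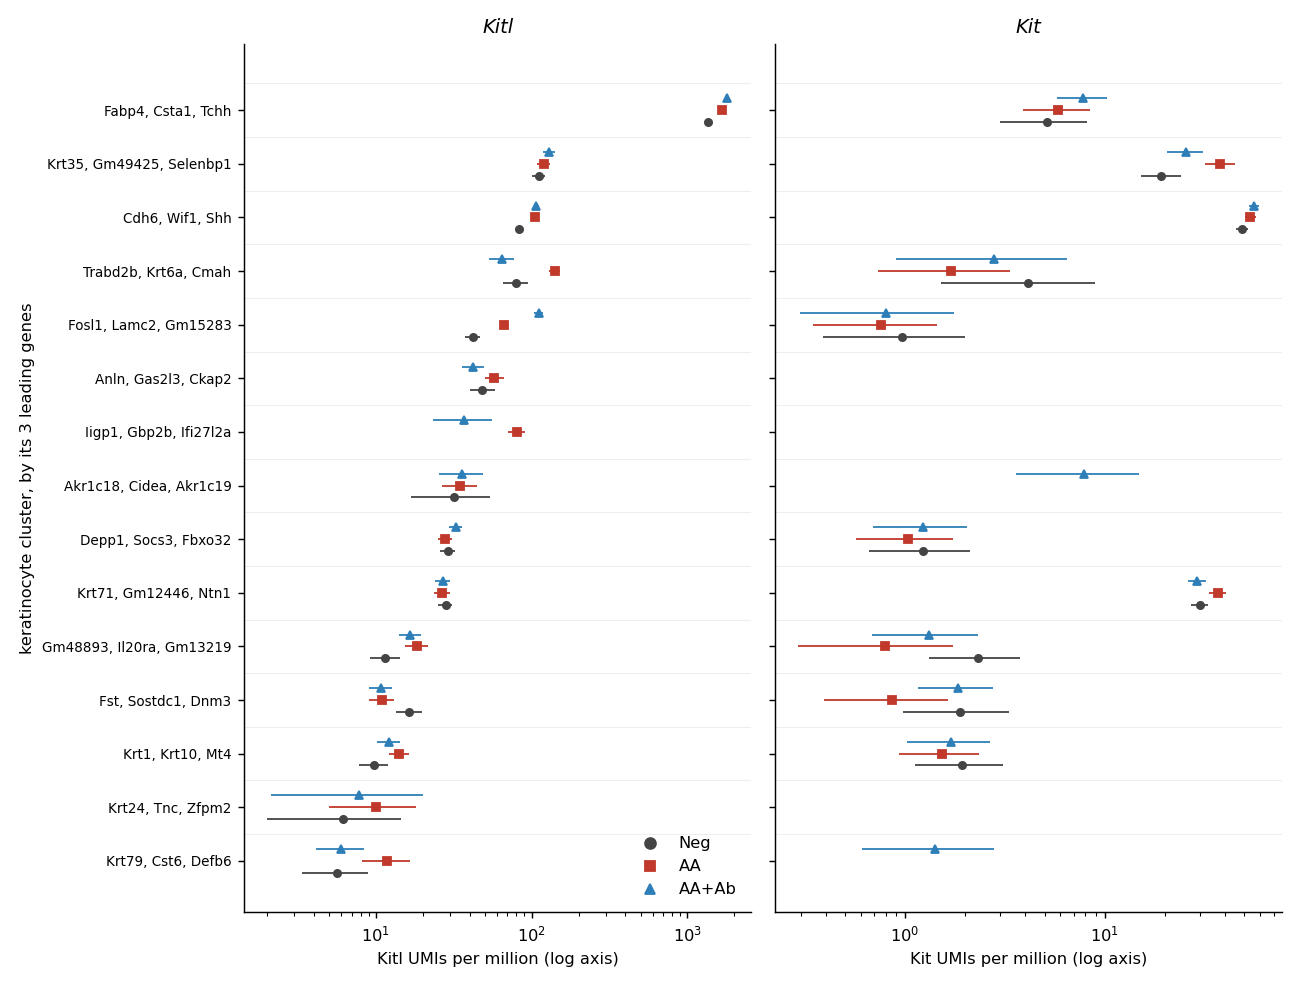
Kitl and Kit in CPM (log axes) in keratinocyte clusters, all but 1, named by their leading genes, in the 3 libraries, with 95% Poisson intervals for counting error and values of 3 or fewer UMIs left out. Kitl peaks in the Fabp4, Csta1, Tchh cluster (1351, 1670 and 1795 in Neg, AA and AA+Ab), and Kit in the Cdh6, Wif1, Shh cluster (48.6, 53.5 and 56.1).

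*Kit* in keratinocytes lay largely in 3 clusters other than the main source of *Kitl*. Over all keratinocytes it was at 15.1, 12.8 and 16.0 CPM, with ratios of 0.845 (0.785 to 0.910) and 1.25 (1.17 to 1.34). The cluster led by *Cdh6*, *Wif1* and *Shh* was at 48.6, 53.5 and 56.1 CPM and carried 56.9%, 57.2% and 65.7% of keratinocyte *Kit* UMIs, and its AA over Neg ratio of 1.10 (0.998 to 1.21) included no difference. The inner root sheath-like cluster led by *Krt71* was at 29.9, 36.8 and 28.8 CPM (ratios of 1.23 and 0.784), and the hair matrix and cortex-like cluster led by *Krt35* at 19.1, 37.8 and 25.4 CPM, with ratios of 1.97 (1.48 to 2.65) and 0.672 (0.511 to 0.882). *Kit* was thus higher in AA than in Neg in the *Krt71* and *Krt35* clusters, while over all keratinocytes it was lower. The *Cdh6*, *Wif1* and *Shh* cluster was 11.3% of Neg, 7.97% of AA and 11.3% of AA+Ab keratinocytes, the *Krt71* cluster 9.64%, 5.68% and 7.35%, and the *Krt35* cluster 3.097%, 2.16% and 2.24%. The *Kitl*-rich cluster had *Kit* at 5.11, 5.85 and 7.76 CPM.

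The pigment genes and *Sox10* in keratinocytes are truncated, since cells with 3 or more of the 5 genes had been taken out. Of the 9 genes, 0 were higher and 1 (*Sox10*, with 35, 19 and 32 UMIs) was lower in AA than in Neg keratinocytes, beside 5.8% higher and 9.54% lower among 18137 genes. Between AA+Ab and AA, 6 were higher and 0 lower, beside 6.03% higher and 9.6% lower among 18240 genes, and the 6 were the 5 pigment genes and *Sox10*. *Mitf* was at 35.2, 46.7 and 37.7 CPM, with ratios of 1.33 (1.27 to 1.39) and 0.808. The *Trabd2b* and *Krt6a* cluster had *Mitf* at 186, 206 and 99.6 CPM and the *Fst* and *Sostdc1* cluster at 92.8, 103 and 98.8 CPM, while *Kit* was under 5 CPM in both.

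In dermal cells *Mitf* and *Kitl* differed in opposite directions between Neg and AA. *Mitf* was at 247 CPM in Neg, 488 CPM in AA and 205 CPM in AA+Ab, ratios of 1.98 (1.70 to 2.30) and 0.421 (0.357 to 0.494). With mitochondrial UMIs at most 5%, the AA over Neg ratio was 1.19 (1.01 to 1.41). The AA level was highest in fibroblasts (250, 470 and 258 CPM) and in dermal papilla cells (223, 519 and 159 CPM) alike. *Kitl* was at 237, 132 and 197 CPM, from 221, 202 and 183 UMIs, ratios of 0.555 (0.456 to 0.674) and 1.49 (1.22 to 1.83). In fibroblasts it was at 268, 154 and 351 CPM, whereas in dermal papilla cells it was at 25.7 CPM from 3 UMIs in Neg, 92.4 CPM in AA and 58.9 CPM in AA+Ab, a ratio of 3.59 (1.16 to 17.98).

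The dermal *Kitl* result depended on which cells were called dermal. Cells of these clusters without 3 of 5 fibroblast genes held 59.3%, 13.9% and 51.4% of the dermal *Kitl* UMIs. In dermal cells with 3 or more of those genes, *Kitl* was at 188, 147 and 155 CPM, ratios of 0.783 (0.603 to 1.02) and 1.05. Among all cells of the library with 3 or more of the 5 genes, the ratios were 2.01 and 0.562, both on the other side of 1. That set held 65, 164 and 67 cells, of which 42, 150 and 58 lay in the dermal clusters. Cells with 2 or more endothelial genes, 4 in Neg, 11 in AA and 13 in AA+Ab, were at 676, 246 and 549 CPM, and without them the ratios were 0.608 and 1.09. Of the 9 genes, 8 had enough dermal UMIs for AA over Neg, and 3 were higher and 3 lower, beside 16.4% and 17% of 10535 genes. For AA+Ab over AA, 7 had enough, and 0 were higher and 2 lower, beside 16.3% and 17.2% of 10439 genes. *Sox10*, which marks neural crest-derived cells, had 32, 9 and 0 UMIs in dermal cells, and the 32 of Neg lay in 7 cells. Mast cells, which are also known to express *Kit*, were too few to describe, with 12, 1 and 4 cells by 3 or more markers and 1, 0 and 1 *Kit* UMIs.

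**Figure D5:**
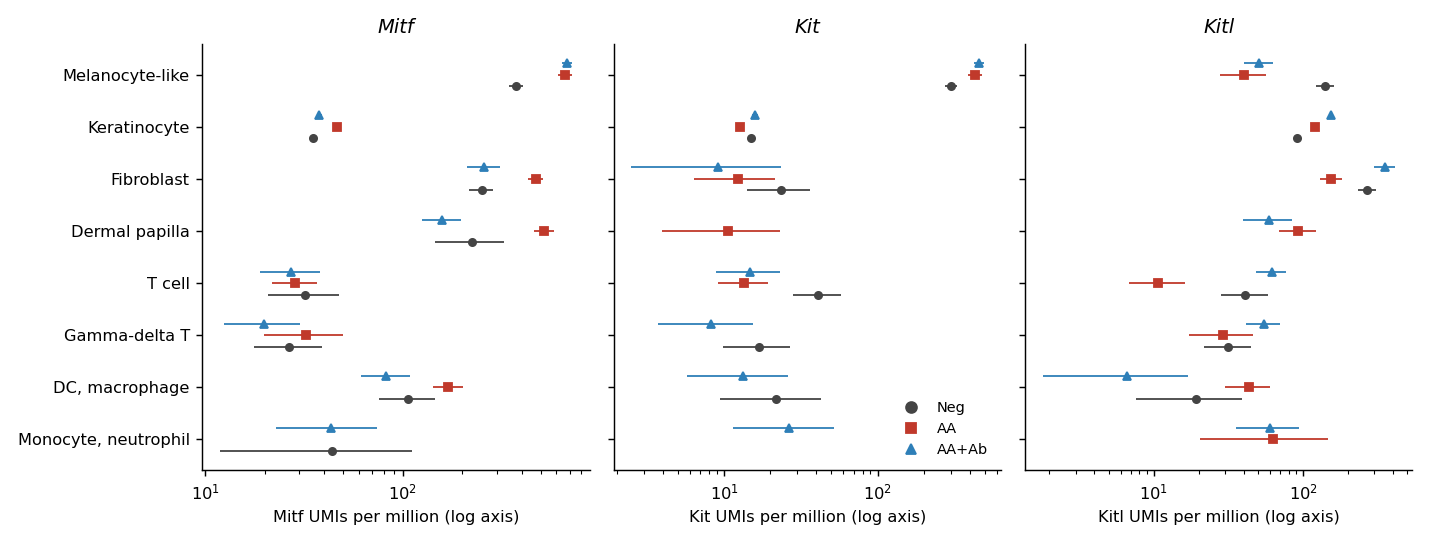
Mitf, Kit and Kitl in CPM (log axes) in 8 cell classes of the 3 libraries, with 95% Poisson intervals for counting error and values of 3 or fewer UMIs left out. Mitf is highest in melanocyte-like cells (375, 663 and 677) and next in dermal cells, Kit is highest in melanocyte-like cells (302, 433 and 456), and Kitl in fibroblasts differs between libraries (268, 154 and 351).

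Other ligands and sheddases that act on melanocytes were read in keratinocytes and dermal cells. In keratinocytes, 2 of 14 were higher in AA than in Neg, *Nrg1* (63.4, 140 and 74.3 CPM) and *Edn1* (2.07, 3.34 and 1.52 CPM), both growth signals for melanocytes, and 0 were lower, beside 5.8% and 9.54% over all genes. In dermal cells, 6 of 14 were higher and 1 lower, beside 16.4% and 17% over all genes. In fibroblasts 7 of 13 were higher and 2 lower, beside 1654 and 1968 of 9416 genes. In dermal papilla cells 2 of 11 were higher and 4 lower, beside 1714 and 903 of 5861 genes. The mix of fibroblasts and papilla cells differed between libraries, and its part in the dermal levels was not tested. Over all dermal cells *Edn3*, a ligand of EDNRB, was at 22.6 CPM in Neg, 72.3 CPM in AA and 328 CPM in AA+Ab, with ratios of 3.21 and 4.53. *Hgf*, the ligand of MET, was at 12.9, 31.9 and 3.22 CPM, the AA+Ab value lying at the floor of 3 UMIs. The agouti gene *a*, which dermal papilla cells express to switch melanocytes to pheomelanin, was at 1166, 421 and 866 CPM in dermal papilla cells, which numbered 18 in Neg, 100 in AA and 65 in AA+Ab.

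Over 69 combinations of cell class and library, the genes most like *Kitl* were *Fscn1* (Spearman rho 0.77), *Id3* (0.683), *Gja1* (0.665), *Igsf3* (0.66) and *F3* (0.659), and those most like *Kit* were *Patz1* (0.786), *St3gal3* (0.778), *Ostc* (0.771), *Snx30* (0.764) and *Plekhj1* (0.749). The points share libraries and depth, 16715 genes were compared, and the values are a description.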

How the data were processed

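Dorsal skin of 7 to 8 mice per group was pooled into 1 single-cell library each for Neg, AA and AA+Ab. The deposited values are raw UMI counts per gene and barcode, which the authors made without normalization. The submitters' processing notes name Cell Ranger 7.2.0, FastQC 0.11.7 and mm10. The libraries held 6965, 10879 and 10507 barcodes and 121289374, 137290217 and 141998364 UMIs, and 94.5%, 95.9% and 93.6% of barcodes were kept (at least 200 genes, mitochondrial UMIs at most 10%). All columns were used, and doublets were kept in the main result.

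Cells outside the gene rule were clustered with scanpy 1.11.5 (2000 variable genes, 1970 of them kept, 30 principal components, 15 neighbours, resolution 0.8) into 27 clusters, named from fixed markers. A clustering of all cells gave 28 clusters and the melanocyte-like cells. Leading genes of a cluster define it and are no result. UMIs were summed per class and library, with intervals from scipy 1.17.1 (Python 3.11.15). With 1 library per group there was no test, and a ratio of 1.5 or more in either direction, over genes with at least 20 UMIs in the compared libraries, was counted instead. Named were all 9 genes, pathway-list genes with at least 20 UMIs (up to 6 with the most UMIs, and those past 1.5, given here in part) and the 5 genes most like *Kit* and *Kitl*. The *Mlana* ranges and genes described only in them were chosen after their values were seen. The 9 genes, the lists and the parts of skin compared were chosen with earlier results of these data known. A keratinocyte cluster and a gene of a pathway list are not reported here by name. The scripts were tested on simulated counts. Alternatives tried are listed with their values at the close.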

Additional observations from a re-analysis of the deposited data

Results flagged for a closer look

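The AA over Neg ratios of 3 genes took opposite directions in different cell classes, each from 1 library per group, and the difference between classes was not tested. *Sox10* had a ratio of 1.60 in melanocyte-like cells, but 0.382 in keratinocytes and 0.171 in dermal cells, the last 2 from few UMIs. *Kit* had a ratio of 1.44 in melanocyte-like cells and 0.845 in keratinocytes, but it was not lower in AA within its main keratinocyte clusters. *Kitl* had a ratio of 1.32 in keratinocytes, but 0.284 in melanocyte-like cells and 0.555 in dermal cells. In Neg melanocyte-like cells 78.9% of the *Kitl* UMIs came from 5 cells. The dermal *Kitl* ratio depended on processing and on the cells called dermal, and lay between 0.484 and 3.59 over the alternatives tried.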

How the results depend on the processing

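No paired analysis was possible because each group is 1 library, and for the same reason no replicate could be left out. Ratios are AA over Neg, then AA+Ab over AA, in that order where 2 are given, and the cause of a shift was not tested. Alternatives marked (a) were chosen after seeing the data. Of 124 alternative values of the 6 main results, 115 kept their side of 1. Of 424 values of single genes, 418 did, and among the others *Tyrp1* in dermal cells went from 1.65 to 0.488 with mitochondrial UMIs at most 5%. *Kitl* in rule cells, AA+Ab over AA (0.642), was no longer past 1.5 with that limit (0.882), median-of-ratios scaling (0.730) or a total without mitochondrial, ribosomal protein and hemoglobin UMIs (the reduced total, 0.675), and *Mitf* in dermal cells, AA over Neg (1.98), was 1.19 with that limit.

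The share of cells called melanocytes (0.151, 4.84) was 0.318, 2.70 with 2 or more of the 5 genes, 0.237, 3.35 with 3 or more of 7 genes, 0.0995, 6.85 with 4 or more of 5, 0.440, 2.85 after thinning to 1000 UMIs, 0.505, 2.65 with at least 1% pigment gene UMIs and 1000 UMIs (a), and 0.746, 1.39 for melanocyte-like cells (a). *Mitf*, *Sox10* and *Kit* in rule cells (3.46, 0.442) were 1.64, 0.750 with 2 or more genes, 5.32, 0.379 with 4 or more, 1.41, 0.952 with at least 1% (a), 3.21, 0.503 with median-of-ratios scaling, 3.89, 0.388 with mitochondrial UMIs at most 5%, 1.62, 1.02 in melanocyte-like cells (a), the second turned, and 2.07, 0.825 with equal weight for each of these cells (a). The 5 pigment genes in rule cells (3.62, 0.431) were 1.19, 0.900 with at least 1% (a), 4.41, 0.382 with cells chosen by the other 4 genes, 3.47, 0.453 with the reduced total, 3.35, 0.460 without doublets, 3.36, 0.490 with median-of-ratios scaling, 0.445 (second) with at most 20% and 3.79 (first) with at most 5% mitochondrial UMIs, 1.23, 1.01 in melanocyte-like cells (a), the second turned, and 0.835, 1.30 with equal weight (a), both turned.

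The 5 pigment genes over all cells (0.551, 1.92) were 0.561 (first) with at least 500 genes, 0.535, 1.99 with the reduced total, 0.577, 1.82 without doublets, 0.573 (first) with median-of-ratios scaling, 0.561, 1.96 with at most 20% and 2.03 (second) with at most 5% mitochondrial UMIs. *Kitl* in keratinocytes (1.32, 1.29) was 1.24 (second) with rule cells kept (a), 1.25, 1.08 with clusters weighted to the Neg mix, 1.33 (second) with the reduced total, 1.36, 1.32 without doublets, 1.39 (first) with median-of-ratios scaling and also with at most 5% mitochondrial UMIs, and 1.41, 0.900 without the *Fabp4*, *Csta1* and *Tchh* cluster (a), the second turned. *Kitl* in dermal cells (0.555, 1.49) was 2.01, 0.562 over cells with fibroblast genes, both turned, 2.28 (second) in fibroblasts only (a), 3.59, 0.638 in dermal papilla only (a), both turned, 1.87 (second) without doublets and 1.16 (second) with at most 5% mitochondrial UMIs. Depth limits *Sox10* outside melanocyte-like cells and *Kitl* in the dermal papilla of Neg.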
